A study of Mus musculus with 12 samples.

Results

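Trimethylation of histone H3 at lysine 4 (H3K4me3) was compared between lung endothelial cells of CSE knockout and wild-type mice, in the 4 H3K4me3 libraries of a series of 12 that also holds H3K27ac and H3K23ac. The wild-type cells are labelled WT and Cre-negative, and the knockout cells are labelled CSE-KO and Cre-positive, with 2 libraries per genotype. Of the promoter that drives Cre, the age and number of the animals and whether replicates came from separate animals, nothing was given in the sources used here, so p-values measure only how these libraries vary, which may be technical. An effect of Cre and an effect of the knockout cannot be told apart. Of the 1192075 regions of the table, 228865 had a count in at least 1 of the 4 libraries, and 11027 regions with 10 or more counts in at least 2 of them were kept and are described here.

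H3K4me3 is laid down by methyltransferases of the COMPASS family at the promoters of active and poised genes, often over CpG islands. It is bound by readers such as the general transcription factor TFIID and removed by lysine demethylases. CSE, cystathionine gamma-lyase, is encoded by Cth and releases cysteine from cystathionine in the transsulfuration pathway, and is also a source of hydrogen sulfide in endothelium. The regions carry no position, length or gene name, so neither Cth nor endothelial markers were checked in these libraries, promoters were not told apart from other regions, and no sequence is shown.

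Each region is named by the list that holds it and a running number. The 12 lists are read as the regions called in the 12 libraries, and a list favours the library it was called in. The H3K4me3 lists hold 3684 of the regions kept: 500 from WT replicate 1, 1335 from WT replicate 2, 1208 from CSE-KO replicate 1 and 641 from CSE-KO replicate 2. The other 7343 (66.6%) come from lists of the other marks, 6864 from H3K23ac lists and 479 from H3K27ac lists. They are given apart where the list bears on a result. Whether some of them overlap a region of an H3K4me3 list in the genome was not tested.

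Total counts were 396441 and 563330 in WT replicates 1 and 2, and 563755 and 434944 in CSE-KO replicates 1 and 2. The regions kept held 42.8% to 47.7% of them, with a median of 12 and 15 counts per region in WT against 18 and 14 in CSE-KO. Most regions called in a library had no count at all in that library: 72% of the list of WT replicate 1, 53.2% of WT replicate 2, 66.8% of CSE-KO replicate 1 and 71.5% of CSE-KO replicate 2 stood at 0. How reads that overlap several lists were counted is not given in the sources used here, and its part in these zeros was not tested. At the edge of the rule, 1281 regions had a second-highest count of 10 and a median total of 35 over the 4 libraries, and 1493 regions left out had a second-highest count of 9 and a median total of 31. The H3K27ac libraries were less even in depth, so their raw counts do not compare directly. Their total counts were 1351854 and 1110254 in WT replicates 1 and 2, and 4242014 and 1286295 in CSE-KO replicates 1 and 2.

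Most of these regions reached 10 counts in both genotypes, which the count rule largely sets. A region that reaches them in 3 or 4 of the 4 libraries does so in both genotypes by the design. Of the 11027 regions, 4508 (40.9%) had 10 or more counts in all 4 libraries, 2899 in 3 and 3620 in 2. Through both genotypes 9793 regions (88.8%) passed, while 268 passed through the WT libraries alone and 966 through the CSE-KO libraries alone, and regions of these kinds were kept through a difference.
Pairs that mix the genotypes occurred too: 1138 regions passed only in WT replicate 2 and CSE-KO replicate 1, the 2 deepest of the 4 libraries, and 240 only in WT replicate 1 and CSE-KO replicate 2, the 2 shallowest. No count in either WT library was seen at 7 regions and none in either CSE-KO library at 1 region.

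Signal in the regions kept was spread over many regions. The top 1% (110 regions) held 6.94% and 7.7% of these counts in the WT libraries and 6.29% and 6.31% in CSE-KO. Of the 100 regions with the most counts in each library, 46 were shared by all 4. The WT replicates shared 57 of their top 100, the CSE-KO replicates 69, and pairs of 1 WT and 1 CSE-KO library 59 to 74.

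By the SD of the log2 ratio, the WT replicates differed from each other more than any WT library differed from a CSE-KO library. Over all regions kept, the log2 ratio of WT replicate 2 to WT replicate 1 had an SD of 1.34, and that of CSE-KO replicate 2 to replicate 1 an SD of 0.90. The 4 ratios between genotypes had SDs of 1.01, 1.09, 1.18 and 1.31, inside the range of the replicate pairs. In lists of the other marks the replicate SDs were 1.35 for WT and 0.89 for CSE-KO, and those between genotypes 1.00 to 1.29. The regions with 10 or more counts in all 4 libraries, which hold more counts, varied less, with SDs of 0.70 for the WT pair, 0.56 for the CSE-KO pair and 0.58 to 0.69 between genotypes. There the share of regions more than 2-fold apart was 14.77% for the WT pair. It was 8.72% to 14.95% between genotypes, so by this measure the WT pair was not the widest.

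**Figure D1:**
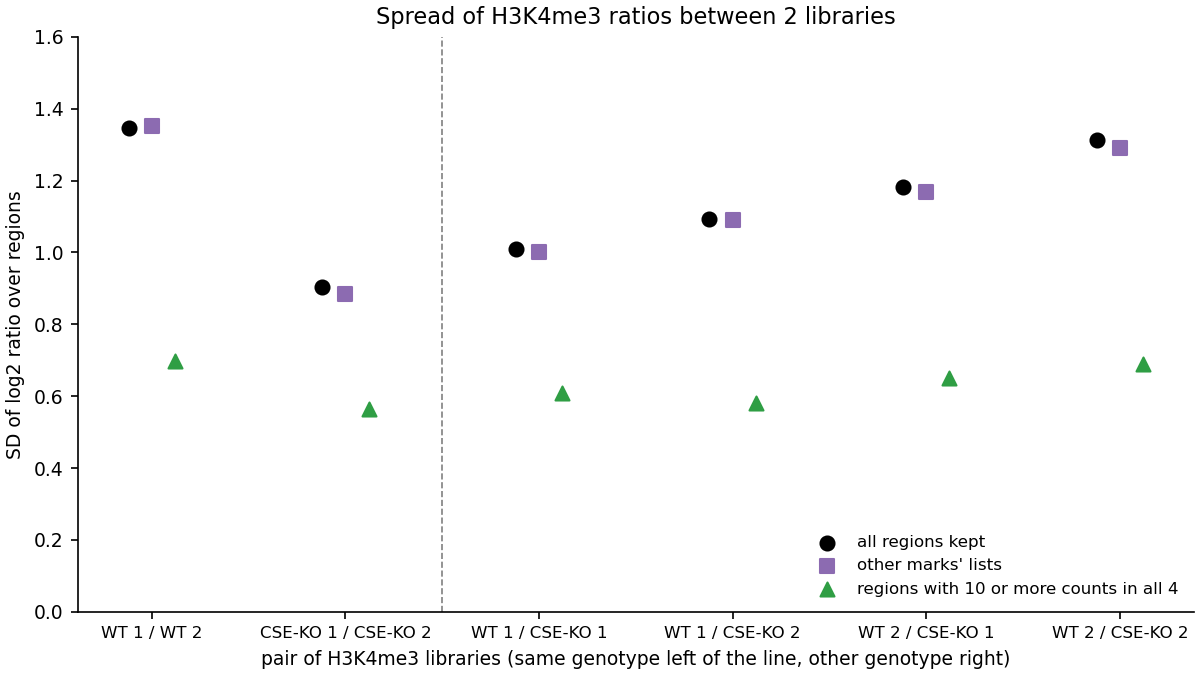
SD over regions of the log2 ratio of H3K4me3 CPM between 2 libraries (y axis), for the 6 pairs of libraries (x axis), in all regions kept, in those of other marks' lists and in those with 10 or more counts in all 4 libraries. The pair of WT replicates has an SD of 1.34 over all regions kept, above the 4 pairs of different genotype (1.01 to 1.31).

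H3K4me3 passed the test at 1 of the 11027 regions (0.00907%), which fell in CSE-KO, and no region passed it as higher in CSE-KO. That region reached 10 counts in the WT libraries alone, so the count rule itself kept it through a difference. The test was edgeR's quasi-likelihood test with TMM factors and Benjamini-Hochberg adjustment over all regions kept. At an unadjusted p under 0.05 stood 256 regions that were higher in CSE-KO (2.32% of those tested) and 234 that were lower (2.12%), or 302 and 183 when libraries were scaled by total counts. Of the 256, 168 had passed the count rule through CSE-KO alone, and of the 234, 63 through WT alone. The log2 fold changes of CSE-KO over WT centred on -0.03 (median), with a spread of 0.77 (SD). Both CSE-KO libraries lay above both WT libraries in CPM (counts scaled to 1e6 of effective library size) at 1926 regions (17.5%). They lay below both at 1829 (16.6%). An exact permutation of 2 against 2 libraries puts full separation, in either direction, at a probability of 0.333. These shares alone thus do not show a genotype difference. The counts also followed the list, with 63 regions above and 564 below of 1835 in WT H3K4me3 lists. In CSE-KO H3K4me3 lists there were 474 and 132 of 1849, and in other marks' lists 1389 and 1133 of 7343.
DESeq2 called 3 regions, 1 higher and 2 lower, and the number of edgeR calls went from 0 to 10 over the alternatives tried. It was 3 without CSE-KO replicate 1 and 0 without any other of the 4 libraries.

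The region that fell was peak6_18659, of the list of WT replicate 2. It had 25 and 58 counts in WT against 3 and 1 in CSE-KO, or 145 and 249 CPM against 10.9 and 5.11 CPM. Both WT libraries were high and both CSE-KO libraries low, with no overlap. The mean was 197 ± 74 CPM in WT and 8.03 ± 4.13 CPM in CSE-KO (SD, n = 2 each), a log2 fold change of -4.47 ± 0.70 (standard error) (95% interval -5.93 to -3.01, edgeR adjusted p = 0.0289). Without WT replicate 2, the library that named it, the log2 fold change was -4.01 and the edgeR adjusted p 0.651. It was also no longer called without WT replicate 1 (0.0823), without CSE-KO replicate 2 (0.29), with scaling by total counts (0.0569) and with edgeR's own filter on low counts (0.0611), all edgeR adjusted p-values. It was called by DESeq2 (adjusted p = 0.00796).

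A region of another mark's list had much the same counts. The region peak7_52378, of the list of CSE-KO H3K23ac replicate 1, had 29 and 60 H3K4me3 counts in WT against 7 and 1 in CSE-KO. Its level was 213 ± 63.7 CPM in WT and 15.3 ± 14.5 CPM in CSE-KO (SD, n = 2 each), again without overlap. The log2 fold change was -3.65 ± 0.65 (standard error) (95% interval -4.99 to -2.30), and it did not pass the edgeR test (adjusted p = 0.0722), while DESeq2 called it (adjusted p = 0.00796).
At both regions H3K23ac was counted in CSE-KO replicate 1 (34 counts in peak6_18659 and 35 in peak7_52378) and was at 0 in WT replicate 2 and CSE-KO replicate 2. The H3K27ac groups overlapped in CPM of the library total, with 5.18 and 0.901 in WT against 3.06 and 4.67 in CSE-KO at peak6_18659, and 4.44 and 4.5 in WT against 3.54 and 4.67 in CSE-KO at peak7_52378. Whether these regions overlap in the genome was not tested. The difference between the genotype effects on the 2 marks did not pass the edgeR interaction test (log2 difference -4.36, standard error 1.27, adjusted p = 0.601 at peak6_18659, and -3.20, 1.14 and 0.9999 at peak7_52378).

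Among regions higher in CSE-KO, the lowest p in lists of other marks belonged to a region with many counts. The region peak7_60831, of the list of CSE-KO H3K23ac replicate 1, had 39 and 25 H3K4me3 counts in WT against 140 in each CSE-KO library, which gave 226 and 107 CPM against 511 and 716 CPM. The CSE-KO libraries were both above the WT libraries. The mean was 167 ± 83.6 CPM in WT and 613 ± 145 CPM in CSE-KO (SD, n = 2 each), a log2 fold change of 1.90 ± 0.38 (standard error) (95% interval 1.10 to 2.69), which did not pass the edgeR test (adjusted p = 0.146).
Both CSE-KO libraries lay above both WT libraries at peak7_60831 for the other marks too: H3K23ac had 1 and 0 counts in WT against 82 and 84 in CSE-KO, and H3K27ac had 11 and 8 in WT against 43 and 38 in CSE-KO. Its list was called in CSE-KO H3K23ac replicate 1, which favours that library. In CPM of the library total, H3K27ac was 8.14 and 7.21 in WT against 10.1 and 29.5 in CSE-KO, with a log2 fold change of 1.30 ± 0.60 (standard error) that did not pass the edgeR test (adjusted p = 0.976). For H3K4me3, DESeq2 called peak7_60831 (adjusted p = 0.0124).

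The next p among higher regions of other marks' lists belonged to another region of the list of CSE-KO H3K23ac replicate 1. It had 3 and 6 H3K4me3 counts in WT against 38 in each CSE-KO library (edgeR adjusted p = 0.189), but the other marks overlapped. H3K27ac was 2.96 and 3.6 CPM of the library total in WT against 4.95 and 2.33 CPM in CSE-KO. H3K23ac had 0 and 3 counts in WT against 56 and 0 in CSE-KO. The region after it, of the list of CSE-KO H3K23ac replicate 2, was higher in CSE-KO in all 3 marks. H3K4me3 counts were 22 and 25 in WT against 123 and 71 in CSE-KO, or levels of 117 ± 14 CPM against 406 ± 60.8 CPM (SD, n = 2 each), a log2 fold change of 1.80 ± 0.39 (standard error) (edgeR adjusted p = 0.189). H3K23ac had 17 and 9 counts in WT against 114 and 81 in CSE-KO, and H3K27ac 2 and 1 in WT against 44 and 17 in CSE-KO. In CPM of the library total, H3K27ac was 1.48 and 0.901 in WT against 10.4 and 13.2 in CSE-KO. The groups did not overlap in any of the 3 marks there, and its list favours CSE-KO H3K23ac replicate 2.
The H3K27ac log2 fold change at that region was 3.23 with a standard error of 0.86 (edgeR adjusted p = 0.154). The test was also limited to the 4508 regions with 10 or more counts in all 4 H3K4me3 libraries, a limit chosen after the values were seen. The 2 regions called were peak7_60831 (edgeR adjusted p = 0.00036) and the region of the CSE-KO H3K23ac replicate 2 list (edgeR adjusted p = 0.00804).

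In the H3K4me3 lists the lowest p among higher regions was that of peak11_26558, of the list of CSE-KO replicate 1. Both WT libraries stood at 0 against 33 and 14 counts in CSE-KO, or 120 and 71.6 CPM. The CSE-KO mean of 96 ± 34.6 CPM (SD, n = 2) was at least 13-fold higher than a floor of 3 counts over the WT group, and the edgeR adjusted p was 0.122. Without CSE-KO replicate 1, which named it, the edgeR adjusted p was 0.999.
The 1 region without counts in CSE-KO, of the list of CSE-KO H3K27ac replicate 1, had 16 and 20 counts in WT, or 89.3 ± 4.68 CPM (SD, n = 2). This was at least 14-fold higher than the floor over the CSE-KO group (edgeR adjusted p = 0.154).

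**Figure D2:**
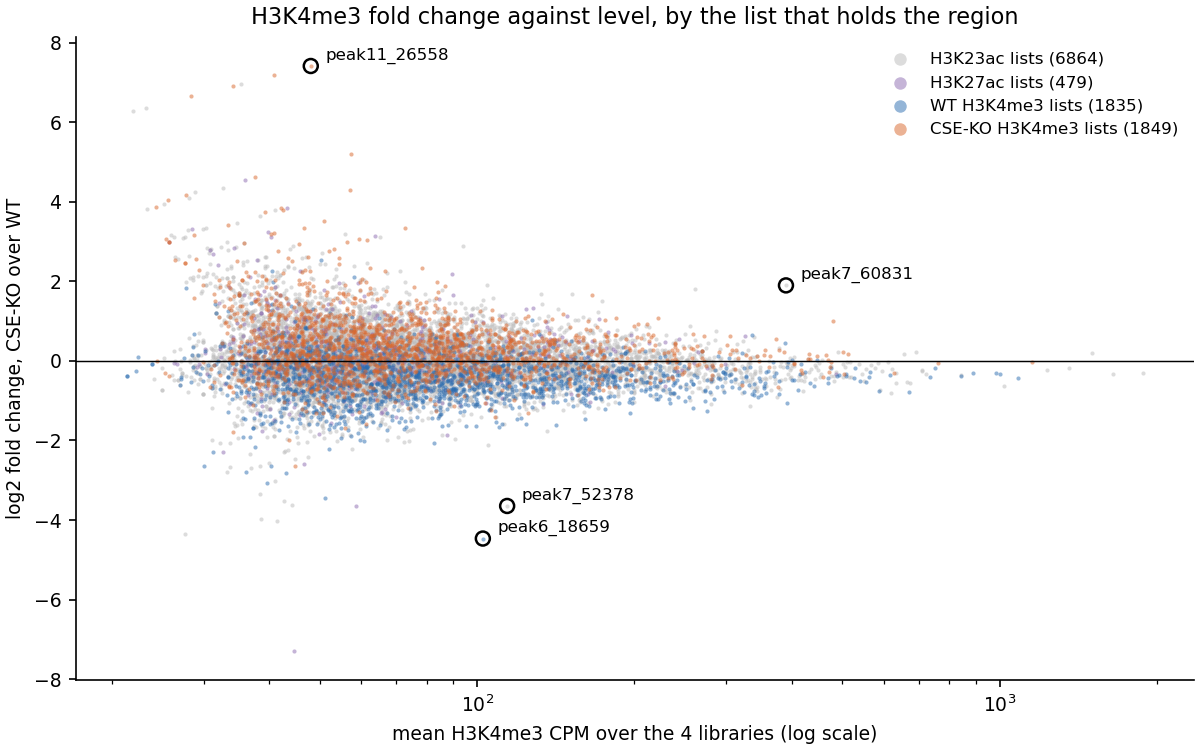
Fitted log2 fold change of H3K4me3, CSE-KO over WT (y axis), against the mean CPM over the 4 libraries (x axis, log scale) for the 11027 regions kept, each a point coloured by the list that holds it, with the 4 named regions circled. Points of WT H3K4me3 lists lie mostly below 0 and those of CSE-KO H3K4me3 lists mostly above, and the fitted value of peak11_26558, which has no WT count, is not a bound.

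**Figure D3:**
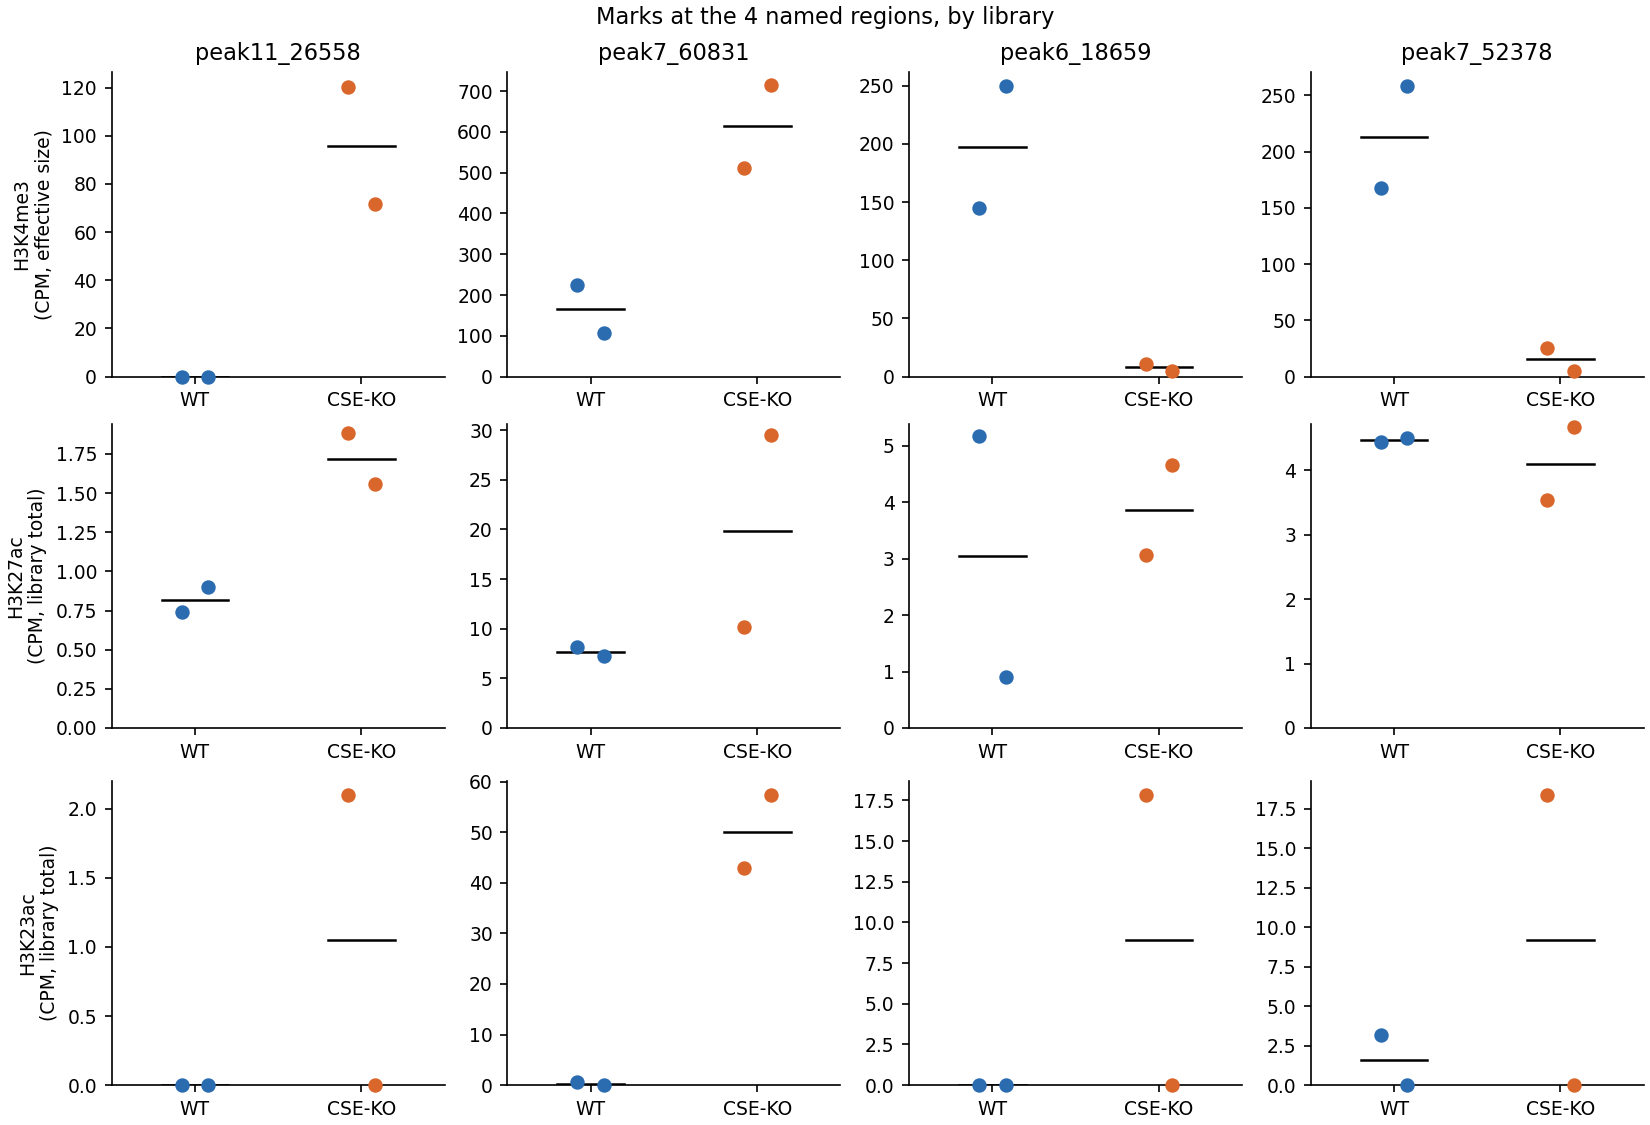
Level in each library (points) and group mean (short lines) at the 4 named regions (columns) for H3K4me3 in CPM of effective library size, and for H3K27ac and H3K23ac in CPM of the library total (rows), with a scale of its own in each panel. At peak7_60831 all 3 marks are higher in both CSE-KO libraries, and at peak6_18659 H3K4me3 is low in CSE-KO while H3K27ac overlaps.

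The 10 regions of lowest p in each direction were read in H3K27ac, whose libraries took no part in their ranking, though 1 of the higher and 2 of the lower regions came from the list of CSE-KO H3K27ac replicate 1. Of the higher regions 8 had passed the count rule through CSE-KO alone, and of the lower 9 through WT alone, so the shares over all regions kept are given beside them as a description only. Of the 10 regions with higher H3K4me3 in CSE-KO, 6 came from H3K4me3 lists, all of them CSE-KO lists, and 4 from other lists. H3K27ac was higher in both CSE-KO libraries than in both WT libraries, in CPM of the library total, at 7 of these 10 and lower at 0, against 15.9% and 15% of all regions kept. Only 4 of the 10 passed the count rule for H3K27ac, and 0 were called for it by edgeR. Some of these differences rest on few H3K27ac reads, such as 1 and 1 counts in WT against 8 and 2 in CSE-KO at peak11_26558. Of the 10 with lower H3K4me3, 7 came from lists of other marks. H3K27ac was lower at 2 of these 10 in the same sense and higher at 0, against 15% and 15.9% of all regions kept. Here too 4 passed the count rule for H3K27ac and 0 were called. H3K23ac was higher in both CSE-KO libraries at 3 of the 10 higher regions and lower at 0, against 20.4% and 6.09% of all regions kept. Among these 3 were peak7_60831 and the region described above of the list of CSE-KO H3K23ac replicate 2, and their lists favour CSE-KO H3K23ac libraries. At the 10 lower regions H3K23ac was lower at 0 and higher at 1, against 6.09% and 20.4% of all regions kept. Regions of CSE-KO H3K23ac lists were among these 10 too. One of the higher regions, of the list of CSE-KO H3K4me3 replicate 1, had 1 and 0 H3K4me3 counts in WT against 36 and 18 in CSE-KO (edgeR adjusted p = 0.122). Its H3K27ac level was 1.48 and 0 CPM of the library total in WT against 8.01 and 7 CPM in CSE-KO. Without its own library its H3K4me3 log2 fold change went from 5.20 to 4.86, with an edgeR adjusted p of 0.999.

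The same reading was made over all regions at an unadjusted p under 0.05 that also passed the count rule for H3K27ac. Of the 256 higher regions 70 did so, and 45 of the 70 (64.3%) had a higher H3K27ac fold change, against 890 of all 1989 regions kept that passed the rule (44.7%). Of the 234 lower regions 48 did so, and 33 of the 48 (68.8%) had a lower H3K27ac fold change, against 1099 of the 1989 (55.3%). No test of these shares was made, and they include the regions kept through 1 genotype alone.

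Most regions also carried H3K27ac reads: 7723 (70%) had a count in all 4 H3K27ac libraries and 25 had none. H3K23ac reads were found in all 4 of its libraries at 2600 regions (23.6%) and in none at 821 (7.44%). H3K27ac itself was tested on its own table of 23593 regions, with 17 calls (0.0721%) and 822 at an unadjusted p under 0.05 (3.48%). Among the 1989 of them that were kept for H3K4me3 as well, 3 were called and 70 (3.52%) stood at an unadjusted p under 0.05, a share close to that of the whole table. All 3 fell in CSE-KO, by edgeR. In 1, of the list of WT H3K23ac replicate 1, H3K27ac went from 22 and 25 counts to 6 and 1 (log2 fold change -3.81, standard error 0.69, edgeR adjusted p = 0.000322), and H3K4me3 had 15 and 14 counts in WT against 2 and 0 in CSE-KO (log2 fold change -3.98, standard error 1.30, edgeR adjusted p = 0.977). Its H3K27ac level was 16.3 and 22.5 CPM of the library total in WT against 1.41 and 0.777 CPM in CSE-KO.
In the second, of the same list, H3K27ac had 20 and 23 counts in WT against 14 and 1 in CSE-KO (adjusted p = 0.0346 by edgeR), and H3K4me3 had 10 and 31 in WT against 8 and 2 in CSE-KO (adjusted p = 0.999 by edgeR). Here H3K27ac stood at 14.8 and 20.7 CPM of the library total in WT against 3.3 and 0.777 CPM in CSE-KO. In the third, of the list of CSE-KO H3K23ac replicate 1, H3K27ac had 39 and 16 counts in WT against 17 and 3 in CSE-KO (adjusted p = 0.0358 by edgeR). In CPM of the library total these were 28.9 and 14.4 in WT against 4.01 and 2.33 in CSE-KO, without overlap. The H3K4me3 groups did overlap there, with 17 and 0 counts in WT against 3 and 14 in CSE-KO. DESeq2 called 0 of these regions for H3K27ac, with 24 at an unadjusted p under 0.05. The number called by edgeR was 5 and 25 without WT H3K27ac replicates 1 and 2, and 0 without either CSE-KO H3K27ac library.

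The genotype effects on H3K4me3 and H3K27ac were also compared directly, in an edgeR interaction model of 8 libraries over 32631 regions. It called 1 region (0.00306%), which is not among those kept for H3K4me3, and 0 of the regions kept, with 397 of them (3.6%) at an unadjusted p under 0.05, against 1532 (4.69%) of all regions tested. Without WT H3K4me3 replicate 1 it called 10 of the regions kept.

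Regions of each H3K4me3 list tended to be higher in the genotype whose library named them. The median log2 fold change was -0.43 over the 1835 regions of WT H3K4me3 lists, with 2 higher and 104 lower at an unadjusted p under 0.05, and 0.25 over the 1849 of CSE-KO lists, with 95 higher and 7 lower. In H3K23ac lists the median was -0.01, with 140 higher and 115 lower. The median in H3K27ac lists was 0.15, over 479 regions of which 393 came from CSE-KO H3K27ac replicate 1.

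The split by list was then read without the library that named the regions. In the 500 regions of the WT replicate 1 list, the median CPM was 98.4 in that library, 51.6 in WT replicate 2, and 56.6 and 56.2 in the CSE-KO libraries. WT replicate 2, of the same genotype, thus lay with the CSE-KO libraries and not with WT replicate 1. In the 641 regions of the CSE-KO replicate 2 list it was 92 in that library, 54.7 in CSE-KO replicate 1, and 63.7 and 55.9 in the WT libraries.
The lists of WT replicate 2 and CSE-KO replicate 1 had medians of 116 and 84 CPM in their own libraries and 66.5 to 69.4 and 60.2 to 69.4 CPM in the other libraries. Without its own library, the median log2 fold change of a list went from -0.40 to 0.16 for WT replicate 1, from -0.45 to -0.07 for WT replicate 2, from 0.22 to -0.06 for CSE-KO replicate 1 and from 0.33 to -0.03 for CSE-KO replicate 2. Each of these fits has 1 library in an arm, which is assumed to vary like the pair of the other genotype, and the biological coefficient of variation was 26.6% without a WT library against 44.7% without a CSE-KO library. In these fits edgeR called 0 regions of the list concerned in each of the 4 cases, which says little at this size. At an unadjusted p under 0.05 stood 53 and 64 regions of the lists of WT replicates 1 and 2 (10.6% and 4.79%, against 13.9% and 7.64% of all regions kept in the same fits). In the lists of CSE-KO replicates 1 and 2 there were 17 and 7 (1.41% and 1.09%, against 2.31% and 1.7%). With DESeq2 size factors in edgeR the number called was 4.

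**Figure D4:**
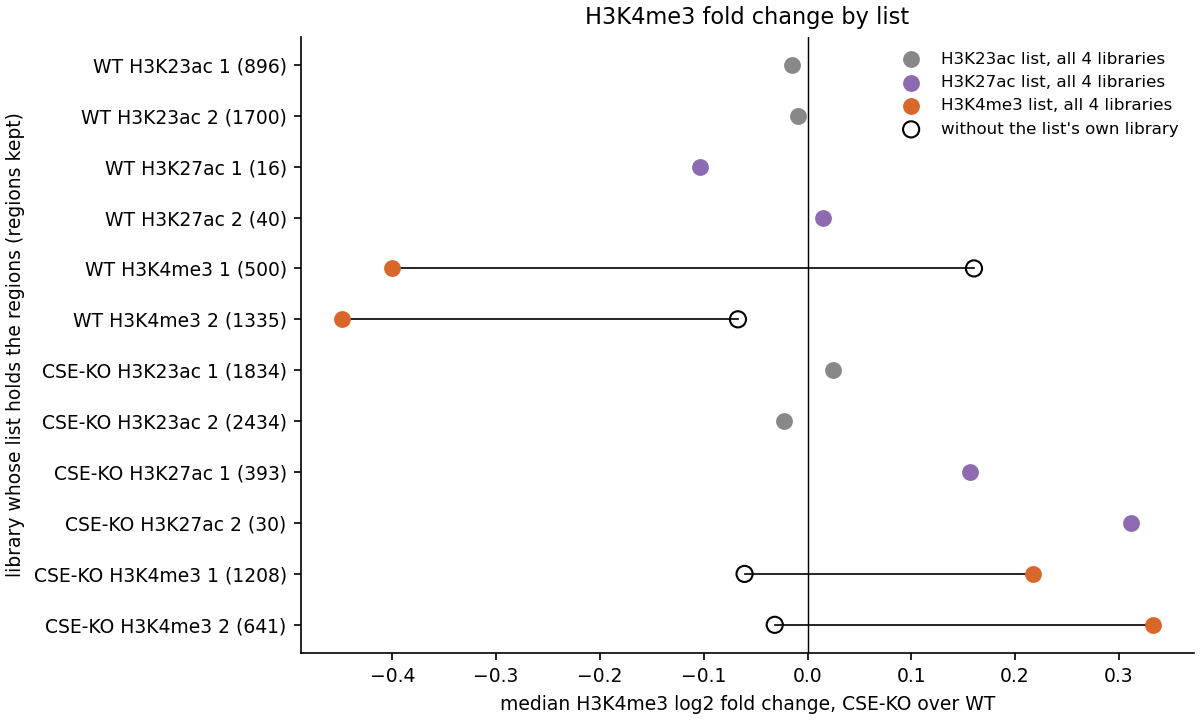
Median log2 fold change of H3K4me3, CSE-KO over WT (x axis), of the regions kept in each of the 12 lists (y axis, with the number of regions), from all 4 libraries (filled points) and without the list's own library (open points). The 4 H3K4me3 lists lie between -0.45 and 0.33 with their own library and between -0.07 and 0.16 without it.

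The fold change also varied with the level of H3K4me3. Over regions of other marks' lists, in quartiles of the mean CPM of all regions kept, the median log2 fold change was 0.09 in the lowest quartile, 0.02 and -0.01 in the middle quartiles and -0.09 in the highest. At an unadjusted p under 0.05 the lowest quartile held 48 higher and 22 lower regions and the highest 32 higher and 49 lower, which turned to 39 higher and 34 lower with scaling by total counts. The lowest quartile held 9 higher and 22 lower without CSE-KO replicate 1 and 3 and 18 without CSE-KO replicate 2, but 236 and 23 without WT replicate 1 and 95 and 20 without WT replicate 2. The median of the highest quartile lay below that of the lowest in each fit that left out 1 library (-0.09 to -0.03 against 0.17 to 0.27). Among all regions kept, 966 passed the rule through CSE-KO alone against 268 through WT alone, and the part of this filter in the tilt was not tested.

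The 10 regions with the highest mean level, 985 to 1881 CPM, showed no fold change past the edgeR test (lowest unadjusted p 0.0334, adjusted p = 0.999). Of these, 6 came from H3K23ac lists and 4 from H3K4me3 lists. The highest had 435 and 381 counts in WT against 447 and 340 in CSE-KO, or 2517 and 1638 CPM against 1632 and 1738 CPM. WT replicate 1 was high and the other 3 libraries lay close together. Fold changes of the 10 ran from -0.63 to 0.20 on the log2 scale, with standard errors of 0.21 to 0.28, and 9 of the 10 were lower in CSE-KO. For 9 of the 10 the 95% interval lay within 2-fold in either direction, and for all 10 within 4-fold. Some of the lower regions came from the list of WT replicate 2, which favours that library. Without it, their log2 fold changes went from -0.42 to -0.62, from -0.34 to 0.16 and from -0.32 to 0.085. The region of the CSE-KO replicate 1 list went from -0.03 to -0.08 without its own library.

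The width of the intervals varied with the level. In the highest quartile, with a median total of 130 counts over the 4 libraries, the 95% interval of the fold change lay within 4-fold in either direction at 2617 of 2757 regions (94.9%) and within 2-fold at 362 (13.1%). In the lowest quartile, with a median total of 36 counts, it lay within 4-fold at 455 of 2757 regions (16.5%). Over all regions kept it lay within 4-fold at 6690 (60.7%), and at most regions the interval held a 2-fold difference. Both counting error and the spread between replicates enter these widths, and they were not separated.

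Counts were also summed over long stretches of each list, in 20 bins of equal size by running number, to ask whether groups of many weak regions moved together. Whether running numbers follow genome order is not given in the sources used here. No bin passed the edgeR test, 0 of 240 (0%), with 1 at an unadjusted p under 0.05 and a lowest adjusted p of 0.712. The spread was estimated over all 240 bins together, those of the H3K4me3 lists included. The biological coefficient of variation was 41.3%, against 36.9% for single regions, so the test says little about bins of other marks' lists. In the 160 bins of other marks' lists the log2 fold changes ran from -0.48 to 0.37. Bins ran from -2.11 to -0.96 in WT H3K4me3 lists and from 0.58 to 1.86 in CSE-KO ones, each bin on the side of its own list. Fits that left out any 1 of the 4 libraries did call bins. Each such fit has 1 library in an arm, and the bins of that library's own list favour it. The lists of the bins called were not set apart, so these calls do not show a genotype difference.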

How the data were processed

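ACT-seq uses antibody-guided Tn5 transposase to cut and tag chromatin around a histone mark, and libraries were read paired-end, per the labels' protocols. In the deposited table the authors give unnormalized counts, whole numbers for each region and library. Per the submitters' processing notes, which assign no role, ChIPseeker 1.38.0, edgeR 4.0.16, Subread and R 4.3.3 were used, with both mm10 and GRCm39 as builds. Of the aligner, peak caller and duplicate removal, nothing was given in the sources used here. Columns were matched to samples by the library codes of the labels.

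The regions, lists and tests were chosen with earlier results of these data known. Regions with 10 or more counts in at least 2 of the 4 H3K4me3 libraries were fitted with edgeR 4.0.16 (two-sided; glmQLFit and glmQLFTest) under R 4.3.3, using TMM factors, Benjamini-Hochberg adjustment over all regions kept and a threshold of 0.05. DESeq2 1.42.0 was the second tool, with a local dispersion trend where the parametric one could not be fitted. CPM uses counts in the regions kept times the TMM factor as library size. For the other marks CPM uses the library's total counts. Region lengths are unknown, so levels of different regions also reflect length. Standard errors were derived from the fold change and the F statistic, and 95% intervals use the moderated degrees of freedom. Ratios of 2 libraries use a pseudocount of 0.5. The floor of 3 counts per group and the intervals treat reads as counted, and PCR copies are not independent molecules. Medians came out the same with regions without counts in a genotype set to their bound. Replicates differed by more than counting noise (chi-square over degrees of freedom 3.87 in WT and 2.24 in CSE-KO). The named regions are those of lowest p in each direction, in H3K4me3 lists and in the other lists, and others are described by their list. The edgeR test of H3K4me3 was tested on simulated counts. Python 3.11.15, numpy 2.4.6, pandas 2.3.3, scipy 1.17.1 and matplotlib 3.10.9 served for summaries. Alternatives were other scalings, filters, DESeq2, the replicate number as a block, other bin numbers and each library left out.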

Additional observations from a re-analysis of the deposited data

Results flagged for a closer look

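The edgeR interaction test of the genotype effect on H3K4me3 against that on H3K27ac passed at 1 of 32631 regions, with a log2 difference of 8.58 (standard error 1.75, adjusted p = 0.0321). The region belongs to the list of WT H3K27ac replicate 2 and was not kept for H3K4me3, since only 1 of its H3K4me3 libraries reached 10 counts. Both WT libraries stood at 0 for H3K4me3, against 14 and 0 counts in CSE-KO. For H3K27ac the WT libraries had 23 and 33 counts, against 6 and 8 in CSE-KO, where replicate 1 was the deepest of the H3K27ac libraries. The H3K4me3 part of the difference thus rests on CSE-KO replicate 1. With both WT libraries at 0 for H3K4me3, the fitted log2 difference of 8.58 is not a bound and its size is not an estimate to rely on.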

How the results depend on the processing

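The number of H3K4me3 regions called, 1 with edgeR and TMM, was 1 with DESeq2 size factors, 0 with total counts, 0 with edgeR's own filter at a minimum count of 10, 10 without a filter, 5 with a mean of 10 or more counts, 3 with DESeq2, 0 in lists of other marks alone and, in a filter added after the data were seen, 2 with 10 or more counts in all 4 libraries. It ran from 0 to 3 in fits without 1 library (187 to 1538 at an unadjusted p under 0.05), with 3 without CSE-KO replicate 1 and 0 without each of the others. Of the 10 called without a filter, 4 were not among the regions kept and had 10 or more counts in 1 library only. Calls in a list without its own library numbered 4 with DESeq2 size factors, against 0 with TMM and with total counts.

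With the replicate number as a block 7 H3K4me3 regions were called and 1 region for H3K27ac. The labels give replicates only a number, and same-numbered H3K4me3 libraries did not deviate together (correlation -0.06 across regions). The block changed no call of the bins or of the interaction.

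Bins called ran from 12 to 20 without 1 library. H3K27ac calls at the regions kept, 3 by edgeR, were 0 with DESeq2 and ran from 0 to 25 without 1 library. Interaction calls at these regions ran from 0 to 10 without 1 library, with 10 without WT H3K4me3 replicate 1.

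The 4 named regions kept their direction in each alternative that held them. Over these alternatives the log2 fold change ran from -5.12 to -4.01 for peak6_18659 (called in 6 of 11), from -5.22 to -3.02 for peak7_52378 (5 of 12), from 1.43 to 2.51 for peak7_60831 (5 of 13) and from 6.71 to 7.79 for peak11_26558 (3 of 11). The cause of these shifts was not tested.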
